A study of Mus musculus with 88 samples.

Results

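Mitotic gene transcripts were followed in 6 mouse tissues 24 h after partial body irradiation. The set held 30 genes whose products drive entry into mitosis, assemble the spindle and kinetochores, separate the chromosomes or mark dividing cells. They were found on the array by gene symbol or older alias (Cdc2a for Cdk1, Kntc2 for Ndc80). Of the 25697 probes on the array, 23978 carried 1 gene symbol, and 27 of the 30 genes, out of 16593 genes on the array, had at least 1 probe. Mki67, Ccnb1 and Aurkb had none and were not analysed here. A gene was taken as detected in a tissue when its probe passed a detection p-value of 0.01 on at least 3 arrays of that tissue, and the brightest detected probe stood for the gene. By this measure 20 of the 30 genes were detected in at least 1 tissue. All 20 were detected in the spleen, 13 in the lungs, 8 in the kidney medulla, 7 in the kidney cortex, 6 in the liver and 5 in the thyroid. Bub1, Ccnb2, Cenpe, Kif20a, Hmmr, Nuf2 and Cks2 had probes but were detected in no tissue.

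The animals were female BALB/c nude mice (Foxn1nu, which lack a thymus), aged 4 months, all anesthetized. In group A (collum, n = 3) the neck with the thyroid region received 2 Gy of 4 MV photons, in group B (thorax+abdomen, n = 3) the trunk did, and in group C (collum+thorax+abdomen, n = 3) both did, while the control mice (group D, n = 5) were sham-irradiated. Lungs, spleen, liver and both kidney regions were thus inside the field in groups B and C and outside it in group A, and the thyroid was inside it in groups A and C. Expression was read on 88 single-colour Illumina bead arrays, with 14 mice per tissue and repeat arrays of 1 sample averaged.

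Cells commit to mitosis when cyclin-dependent kinase 1, bound to cyclin A or cyclin B, becomes active. Aurora and Polo-like kinases then drive spindle assembly, and the anaphase-promoting complex with its partner Cdc20 ends mitosis by degrading cyclin B. Transcripts of these genes are low in resting cells and are made from late S phase to mitosis. Many of their promoters hold a cell cycle genes homology region (CHR) together with CCAAT boxes, which are bound by NF-Y. After DNA damage p53 induces Cdkn1a, whose product p21 inhibits cyclin-dependent kinases, and a repressor complex that includes p130 and E2F4 binds CHR promoters. The adult mouse spleen is a dividing tissue, with red cell precursors and other blood-forming cells in its red pulp, whereas most cells of adult lung, liver, kidney and thyroid are at rest.

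Promoters of the 4 genes whose lung values carried the results follow, because the CHR and CCAAT letters recur across the set. Birc5 is shown as a member without them in the window searched. Sequences are from RefSeq on build GRCm38.p6 and run 5′ to 3′ from 150 bases before to 30 bases after the transcription start. Capitals mark matches on either strand. The letters searched were those of the CHR, written TTTGAA or with a central C as TTCGAA, and the CCAAT box, whose other strand reads ATTGG.
Top2a: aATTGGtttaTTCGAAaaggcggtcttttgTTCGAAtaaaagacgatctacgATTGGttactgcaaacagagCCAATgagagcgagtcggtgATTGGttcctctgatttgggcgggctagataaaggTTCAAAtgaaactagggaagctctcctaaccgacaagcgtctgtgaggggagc
Cdk1: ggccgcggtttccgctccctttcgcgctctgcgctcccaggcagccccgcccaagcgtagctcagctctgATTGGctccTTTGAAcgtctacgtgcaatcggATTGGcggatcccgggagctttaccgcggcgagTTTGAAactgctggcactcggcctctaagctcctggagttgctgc
Prc1: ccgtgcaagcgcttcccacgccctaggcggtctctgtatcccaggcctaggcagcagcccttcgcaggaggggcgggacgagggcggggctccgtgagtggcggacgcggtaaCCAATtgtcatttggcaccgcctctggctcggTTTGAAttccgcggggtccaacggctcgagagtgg
Birc5: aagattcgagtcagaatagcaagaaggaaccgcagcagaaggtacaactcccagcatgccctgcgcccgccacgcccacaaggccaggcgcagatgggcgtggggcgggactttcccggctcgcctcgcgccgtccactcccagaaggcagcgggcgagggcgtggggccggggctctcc
The stretches lie at chr11:99024160-99024339 on the minus strand (Top2a), chr10:69352883-69353062 on the minus strand (Cdk1), chr7:80294301-80294480 on the plus strand (Prc1) and chr11:117849087-117849266 on the plus strand (Birc5). The promoter table held 25 of the 30 genes, each as 300 bases. TTTGAA or TTCGAA was found on either strand in 18 of the 25 (72%), against 5254 of all 27025 promoters in the table (19.4%). CCAAT was found in 20 of the 25 (80%), against 37.9% of all promoters, and both were found in 17 of the 25 (68%), against 7.7%. Matches overlapped each other in 2 of the 25. Neither was found in Birc5, Nusap1, Nuf2 or Melk, which says only that these letters are not in this window.

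Before the effect of irradiation, the level of the set in the sham-irradiated mice was compared between tissues, with all arrays on 1 scale. Samples labelled thyroid varied in content, as given below. Over all groups, thyroglobulin was above a log2 signal of 12 in 4 of 14 mice and the muscle genes Acta1 and Ckm in 13. The tissues came from the same 14 mice, but the labels do not tie samples of different tissues to a mouse, so samples were fitted as independent here and in the comparison of effects between tissues. All 20 detected genes were called higher in the spleen than in the lungs, the liver and the thyroid, and 19 were called higher there than in each kidney region. The exception was Spc25, at -0.25 against the kidney cortex and 1.10 against the kidney medulla (limma adjusted p = 0.583 and 0.0111). Most differences were large. The median over the 20 genes was 4.10 on the log2 scale against the lungs, 4.46 against the liver, 4.51 against the thyroid, 4.94 against the kidney medulla and 5.06 against the kidney cortex. Where a gene was detected in no control mouse of the second tissue, its difference is only a bound. With such genes at their bound the median was 4.10 against the lungs (5 genes at a bound), 3.602 against the liver (12), 4.49 against the thyroid (5), 4.40 against the kidney medulla (11) and 4.58 against the kidney cortex (11). A call here needed an adjusted p under 0.01 (limma, Benjamini-Hochberg over 15933 probes) and a log2 difference of at least 0.58. By the same call, higher in the spleen were 27.5% of all probes against the lungs, 32.7% against the liver, 29.9% against the thyroid, 30.1% against the kidney medulla and 30.1% against the kidney cortex. The count of genes is a description and not a test of the set, because the spleen was the tissue in which all 20 passed detection.

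Top2a, the topoisomerase that untangles sister chromatids, gave 10.83 ± 0.36 in the spleen and 6.07 ± 0.20 in the lungs of control mice (log2 signal, SD, n = 5 each). The difference was 4.75 ± 0.30 (SE, limma adjusted p = 2.65e-14). In the liver and both kidney regions Top2a was not detected in any control mouse, and in the thyroid in 1 of 5. Cdk1, the kinase at the centre of mitotic entry, averaged 11.02 ± 0.28 in the spleen and 6.44 ± 0.21 in the lungs, and was detected in 1 of 5 control mice in each of the other tissues. Birc5, which encodes survivin of the chromosomal passenger complex, differed by 6.12 ± 0.30 between spleen and lungs (12.46 ± 0.23 and 6.34 ± 0.25). The spleen was thus the brightest tissue for these 3 genes and the lungs the next by mean, with detection in at most 1 of 5 control mice in the liver, kidney and thyroid. Where a gene was undetected in all control mice of a tissue only a bound can be given, such as at least 131-fold higher in spleen than in kidney cortex for Birc5.

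The lungs came second by count, but with exceptions. Of the 20 genes, 6 were called higher in the lungs than in the liver (29.0% of all probes), 9 higher than in the kidney cortex (24.4%), 8 higher than in the kidney medulla (24.3%) and 4 higher than in the thyroid (27.2%). Against the liver and thyroid these counts were near or below the share of all probes, and against the kidney regions above it. Some calls rest on genes undetected in the second tissue, whose difference is only a bound. Top2a and Aurka, called above the liver, had bounds of -0.0066 and -0.20 there. With such genes at their bound the median over the 20 genes fell from 0.48 to 0.03 against the liver (7 at a bound). It went from 0.58 to 0.39 against the kidney cortex (6) and from 0.52 to 0.30 against the kidney medulla (6). Against the thyroid it was 0.33 and 0.30 (1). Prc1, which bundles microtubules in the spindle midzone, stood out in the lungs at 8.12 ± 0.32, against 5.51 ± 0.39 in the kidney cortex and 5.43 ± 0.48 in the liver, where it was not detected in any control mouse (SD, n = 5 each). Cenpa, the histone variant that marks the centromere, was detected in every control mouse of every tissue. Its order was spleen (13.49), liver (9.28), lungs (9.08), thyroid (8.42), kidney cortex (7.18) and kidney medulla (7.06), and lungs and liver did not differ beyond their spread (lungs minus liver -0.20 ± 0.18, adjusted p = 0.338).

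The single gene called lower in the lungs than in liver and kidney was Spc25, a subunit of the Ndc80 complex that ties kinetochores to microtubules. Spc25 averaged 9.81 ± 0.39 in the kidney cortex, 9.56 ± 0.63 in the spleen, 8.46 ± 0.94 in the kidney medulla, 7.34 ± 0.74 in the liver and 5.41 ± 0.28 in the lungs (SD, n = 5 each). Spleen and kidney cortex did not differ beyond their spread (spleen minus kidney cortex -0.25 ± 0.38, adjusted p = 0.583). Aurka, the kinase of the spindle poles, had an exception of its own, with 5.88 ± 0.25 in the lungs and 7.49 ± 0.26 in the thyroid samples (lungs minus thyroid -1.61 ± 0.18, adjusted p = 5.14e-09). The part of muscle and other neck tissue in that thyroid value was not tested. No other gene of the set was called lower in the lungs than in any of these tissues.

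**Figure D1:**
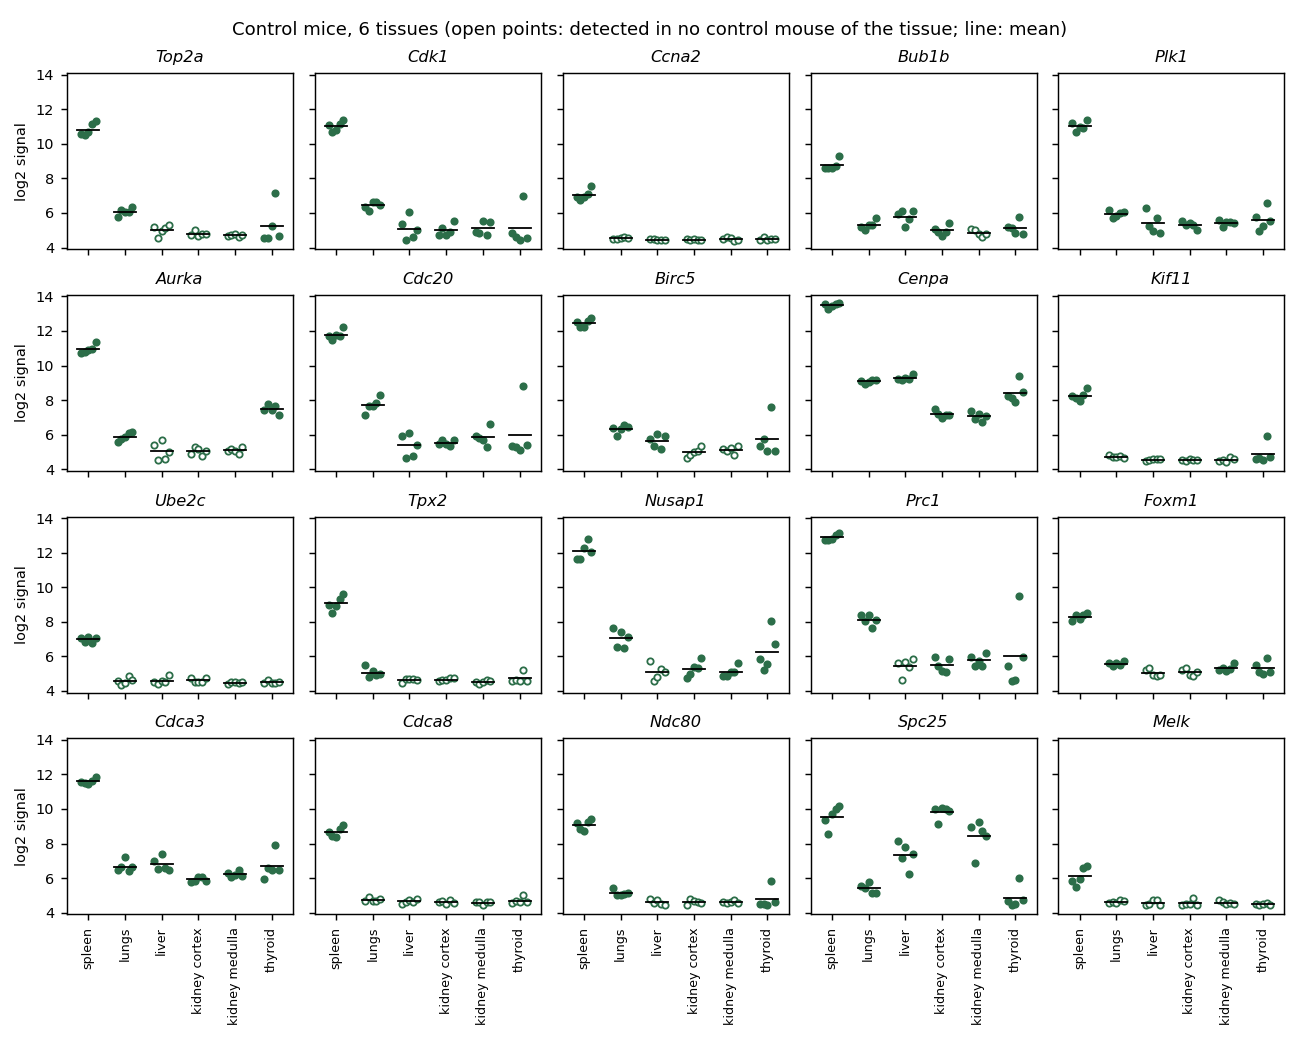
Level of the 20 detected mitotic genes in sham-irradiated mice, as log2 signal on 1 scale for all arrays, 1 point per mouse with a line for the mean and open points where no control mouse of the tissue had the gene detected. Spleen values lie above those of the other tissues for nearly all genes, and for Spc25 the spleen overlaps both kidney regions, with a mean of 9.81 in the cortex.

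Cdkn1a served as the check that the labelled field had reached each tissue. In the spleen it gave 10.36, 10.27 and 10.18 in group B mice and 10.69, 10.80 and 10.50 in group C mice, while group A gave 6.73 to 7.05 and controls 6.52 to 7.19. The log2 ratio of the in-field mice (groups B and C) to controls was 3.61 ± 0.14 in the spleen (SE, adjusted p = 9.56e-10), 2.63 ± 0.31 in the liver (adjusted p = 0.0021), 2.38 ± 0.33 in the kidney cortex (adjusted p = 0.0328), 1.86 ± 0.42 in the kidney medulla (adjusted p = 0.0136) and 1.47 ± 0.20 in the lungs (adjusted p = 0.0107). Every in-field mouse lay above every control mouse in these 5 tissues, and group A overlapped the controls in each. In the thyroid the ratio of the in-field mice (groups A and C) to controls was 0.45 ± 0.56 (adjusted p = 0.845), which was not called. Thyroid values were 9.78, 6.57 and 10.02 in group A and 9.98, 11.40 and 9.53 in group C, against 8.66 to 9.48 in controls. All in-field thyroid samples except group A mouse 2 thus lay above every control.

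In the lungs, the log2 ratios of the mitotic genes lay below 0 upon irradiation of the organ, and Top2a was the one gene that passed the threshold. Upon irradiation of the trunk alone (group B) all 13 detected genes lay below control, with a median log2 ratio of -0.80, and upon irradiation of all regions (group C) all 13 again, with a median of -0.65. The collum setup (group A), which left the lungs outside the field, had a median of -0.14, with 11 of 13 below control but none at an unadjusted p under 0.05. Not every gene followed the field, since Aurka was at -0.34 in group A and -0.27 in group C, and Foxm1 at -0.24 in group A and -0.20 in group C. The other Foxm1 probe differed, with -0.25 in group A, -0.38 in group B and -0.50 in group C. Whether fewer dividing cells or less transcript per cell lay behind a lower signal cannot be told apart in whole tissue. Over all 13356 probes tested the median ratio was 0.03 for the in-field mice.

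Top2a carried the clearest difference. Its log2 signal was 5.44, 5.42 and 5.22 in group B mice and 5.78, 5.47 and 5.82 in group C mice, while group A gave 6.60, 6.48 and 6.66, and controls gave 6.37, 6.83, 6.69, 6.67 and 6.97. All 6 in-field mice lay below all 8 mice whose lungs were outside the field. It was the one mitotic gene past the threshold used throughout (adjusted p under 0.01 with an absolute log2 ratio of 0.58 or more), both in group B (-1.35 ± 0.16, SE, adjusted p = 0.0071) and over the in-field mice (-1.18 ± 0.13, adjusted p = 0.00289), both by limma with Benjamini-Hochberg adjustment. By that call, 0.00749% of all probes passed in group B and 0.0150% over the in-field mice, and 0% passed in group C and 0% in group A. In group C its ratio was -1.02 ± 0.16 (adjusted p = 0.0581). Its probe was detected in none of the group B mice and in 1 of 3 in group C, against all group A and control mice, so that the group B change is better given as at least 2.23-fold lower. Top2a thus passed the detection filter mainly through the mice in which it was high, so its calls are a description and not a test of the set. The difference between groups B and A was -1.22 ± 0.17 (adjusted p = 0.0781), which missed the threshold. Both calls were sensitive to the processing. Top2a in group B was no longer called with the authors' own normalized values, without background correction, or with other variance settings. That call was also lost when any single mouse other than group C mouse 2 or control mouse 1 was left out. The in-field call was lost when any of 6 single mice was left out (group B mouse 1 or 2, group C mouse 2, control mouse 2, 3 or 5), with adjusted p of 0.0110 to 0.0150 in those fits.

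Birc5 gave 5.26, 5.10 and 6.02 in group B mice and 6.05, 5.55 and 5.77 in group C mice, while group A gave 6.70, 6.88 and 6.99, and controls gave 6.54 to 7.25 with a median of 7.04. The in-field mice again all lay below the other 8. Birc5 was detected in 1 of 3 group B mice and 2 of 3 group C mice, against all group A and control mice, so part of the in-field values lay at the detection limit. The in-field ratio was -1.36 ± 0.18 (adjusted p = 0.0107), which missed the threshold by little and passed it without group B mouse 3. The other Birc5 probes gave in-field ratios of -0.68 and -0.90.

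Cdk1 gave 6.06, 5.93 and 6.58 in group B mice and 6.33, 5.73 and 6.12 in group C mice, while group A gave 6.62, 7.28 and 6.73, and controls gave 7.01, 6.76, 7.28, 7.28 and 7.13. Its probe was detected in all 14 mice, and the in-field mice did not overlap the controls. Its in-field ratio was -0.97 ± 0.18 (adjusted p = 0.0838). Prc1 gave 7.95, 7.04 and 7.55 in group B mice and 8.05, 8.34 and 7.70 in group C mice, while group A gave 8.63, 8.94 and 8.78, and controls gave 8.93, 8.62, 8.94, 8.21 and 8.68. Here group B lay apart from the controls and 1 mouse of group C overlapped them, at an in-field ratio of -0.90 ± 0.19 (adjusted p = 0.182). Neither gene passed the threshold.

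**Figure D2:**
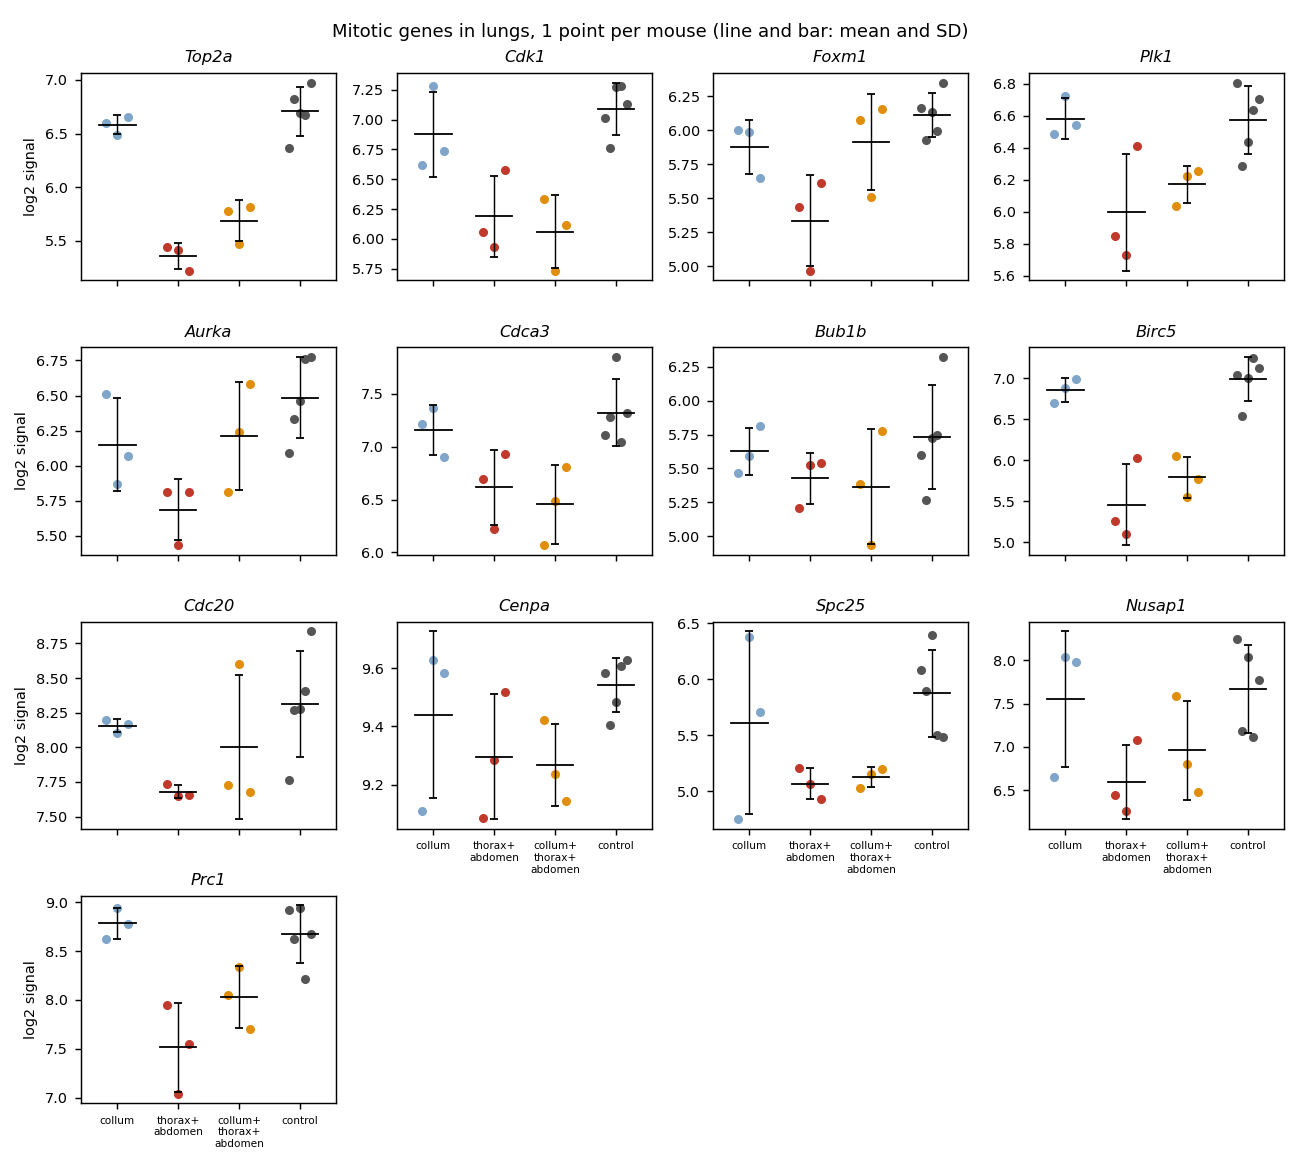
Log2 signal of the 13 mitotic genes detected in the lungs, 1 point per mouse, for the collum, thorax+abdomen, collum+thorax+abdomen and control groups, with line and bar for mean and SD; each panel has a vertical axis of its own. For Top2a the 6 in-field mice sit between 5.22 and 5.82, below the 6.37 of the lowest control mouse.

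The remaining lung genes had smaller ratios and none passed the threshold. By role, the kinases and regulators of mitotic entry other than Cdk1 had in-field log2 ratios of -0.79 (Cdca3, a trigger of mitotic entry), -0.54 (Aurka), -0.49 (Plk1, the Polo-like kinase) and -0.49 (Foxm1, the transcription factor of this gene program). The spindle checkpoint kinase Bub1b was at -0.34 and Cdc20 at -0.47. At the kinetochore Cenpa was at -0.26, and Spc25, undetected in every in-field mouse, was at least 1.18-fold lower, while the spindle protein Nusap1 was at -0.89. Cenpa thus had the ratio nearest to 0. In group B, Bub1b, Foxm1 and Spc25 were detected in no mouse, and their bounds were at least 1.13-fold, 1.48-fold and 1.25-fold lower.

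Over the 13 genes, 11 were lower at an unadjusted p under 0.05 in group B, 7 in group C and 11 over the in-field mice, with none higher. Of all probes, 2.07% were lower by that measure in group B, 2.54% in group C, 2.77% over the in-field mice and 0.659% in group A, where no mitotic gene was. Group B lay below every control mouse for 10 of the 13 (1.14% of all probes), group C for 6 (1.28%) and both together for 5 (0.270%), which were Top2a, Cdk1, Birc5, Cdca3 and Spc25. Compared directly with the collum group, 7 of the 13 were lower at an unadjusted p under 0.05 in group B (1.62% of all probes) and 5 in group C (1.91%). A gene that is detected only where it is high must differ, so the 7 detected in all 14 mice were also read alone. Cdk1, Plk1, Cdc20, Cenpa, Nusap1, Prc1 and Cdca3 were all below control in group B and in group C, with a median in-field ratio of -0.79, and 6 of the 7 had an unadjusted p under 0.05. None of the 7 passed the threshold.

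The median deviation of the 13 genes from the control mean gave 1 value per mouse. It was -0.68, -1.10 and -0.59 in group B mice and -0.62, -0.72 and -0.64 in group C mice, while group A gave -0.12, 0.04 and -0.05 and controls -0.15 to 0.13. Since 6 of the 13 were not detected in every mouse, the median was also taken over the 7 detected in all 14. It was then -0.73, -1.10 and -0.52 for group B and -0.59, -0.35 and -0.64 for group C, while group A gave -0.12, 0.15 and -0.03 and controls -0.13 to 0.18. In-field and other mice did not overlap by either median. The size of the shift depended on the scale, since the median in-field ratio of -0.78 was -0.33 with the authors' normalized values and -0.35 without background correction, with all 13 genes below 0 in each.

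**Figure D3:**
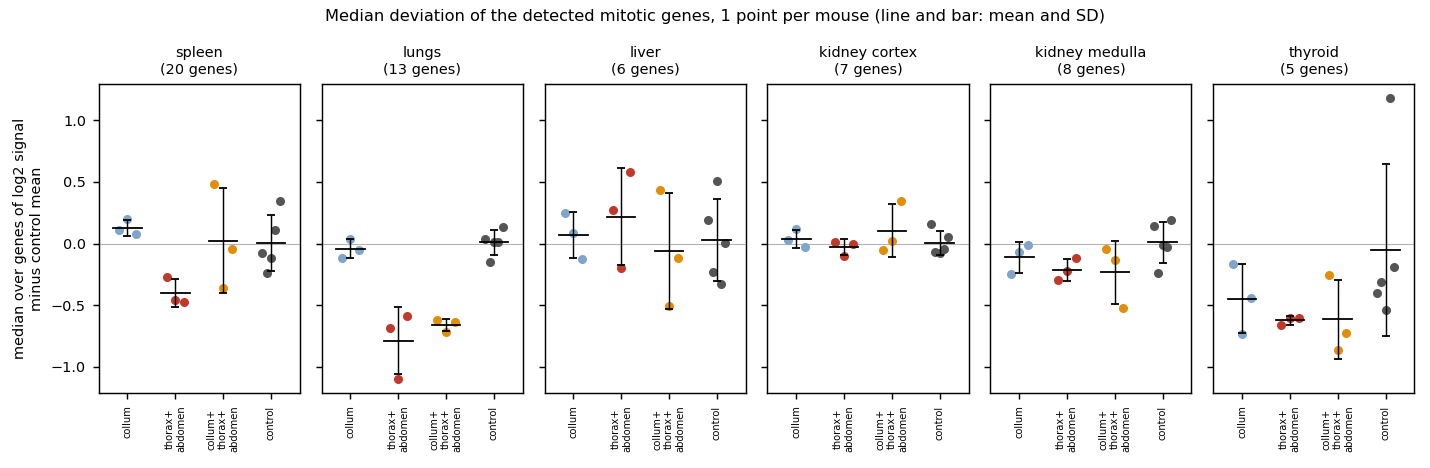
Median deviation from the control mean over the mitotic genes detected in each tissue, in log2 units, 1 point per mouse for the 3 irradiated groups and the controls, with line and bar for mean and SD. In the lungs the 6 in-field mice lie between -1.10 and -0.59, and in the spleen group B lies between -0.47 and -0.27 while group C spans -0.36 to 0.48.

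Other cell cycle genes in the lungs were counted beside the set, and none of them passed the threshold. Of 40 other mitotic genes detected there, 32 lay below control in the in-field mice, with a median of -0.23. At an unadjusted p under 0.05, 13 of the 40 were lower and 2 higher, where 2.77% of all probes were lower and 4.01% higher. Pbk, a mitotic kinase, was at -1.44 (adjusted p = 0.0344), Kif23, a kinesin of the midzone, at -0.96 (adjusted p = 0.069) and Kif22 at -0.94 (adjusted p = 0.319). Of 35 DNA replication genes, 33 lay below control with a median of -0.39, and 16 were lower at an unadjusted p under 0.05 (2.77% of all probes), among them Clspn, a checkpoint adaptor at the fork (-1.12, adjusted p = 0.0344), Uhrf1 (-1.16, adjusted p = 0.649) and Tk1 (-0.98, adjusted p = 0.484). Of the p53 and quiescence genes, Phlda3 was at 0.91 (adjusted p = 0.0344). Besides Phlda3 and Cdkn1a, no gene of that list had an unadjusted p under 0.01 over the in-field mice.

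Markers of other cells were read beside these values. The summed level of the neutrophil list, with 5 of 7 genes detected, was 11.53 to 12.92 in group B and 11.63 to 14.12 in group C, while group A gave 13.38 to 13.77 and controls 13.17 to 14.48. The T cell list (4 of 6 detected, without Cd5 and Lck) was 7.95 to 9.15 in group B, 8.74 to 8.82 in group C, 8.62 to 9.55 in group A and 8.56 to 11.25 in controls. Granulocyte precursor markers (Mpo, Elane, Prtn3, Ctsg, Ms4a3) were undetected in the lungs. Alveolar markers (6 of 6) spanned 16.35 to 16.56 over all mice, and the 5 detected erythroid markers 14.96 to 15.51. Neutrophil markers thus moved with the mitotic genes in group B and only in part in group C, and their part in the result was not tested.

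In the spleen, the tissue with the highest mitotic signal, the groups did not move together. Upon irradiation of the trunk alone (group B) all 20 genes lay below control, with a median log2 ratio of -0.40 and a range of -0.75 to -0.12. Upon irradiation of all regions (group C) 8 of 20 did, with a median of 0.03, although the spleen was in the field in both. The collum group had 6 of 20 below control and a median of 0.10. No mitotic gene passed the threshold in any spleen comparison with controls, where 0.0493% of all probes did in group B, 0.0658% in group C, 0.0986% over the in-field mice and 0.00822% in group A.

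Cdca3 showed the largest group B difference. It gave 10.75, 10.87 and 10.54 in group B mice and 11.82, 11.39 and 11.15 in group C mice, while group A gave 11.33, 11.58 and 11.39, and controls gave 11.44, 11.38, 11.36, 11.48 and 11.71. Group B lay below all other mice, and group C overlapped the controls. Its ratio to controls was -0.75 ± 0.16 upon thorax+abdomen irradiation (SE, adjusted p = 0.137), against -0.02 ± 0.16 upon irradiation of all regions (adjusted p = 0.987). The other Cdca3 probe was at -0.52 ± 0.25 in group B (adjusted p = 0.525). Cdk1 gave 10.36, 10.37 and 10.48 in group B, 11.25, 10.89 and 10.95 in group C, 10.77, 10.89 and 10.77 in group A, and 11.04, 10.66, 10.77, 11.10 and 11.28 in controls. Its ratio was -0.57 ± 0.16 in group B (adjusted p = 0.235) and 0.06 ± 0.16 in group C. Group B was again the lowest of the 4 groups with no overlap.

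Birc5 gave 11.83, 11.77 and 11.92 in group B, 12.44, 11.77 and 11.98 in group C, 12.34, 12.35 and 12.17 in group A, and 12.29, 12.05, 12.01, 12.36 and 12.53 in controls. Prc1 gave 12.45, 12.23 and 12.05 in group B, 12.97, 12.24 and 12.32 in group C, 12.28, 12.80 and 12.72 in group A, and 12.52, 12.49, 12.57, 12.77 and 12.90 in controls. Group B lay below the controls for both, and the first mouse of group C was far above its 2 partners. Top2a gave 10.38, 10.34 and 10.48 in group B, 11.18, 10.23 and 10.63 in group C, 10.85, 11.01 and 10.80 in group A, and 10.55, 10.50, 10.65, 11.07 and 11.22 in controls. Its in-field ratio in the spleen was -0.25 ± 0.18 (adjusted p = 0.705).

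**Figure D4:**
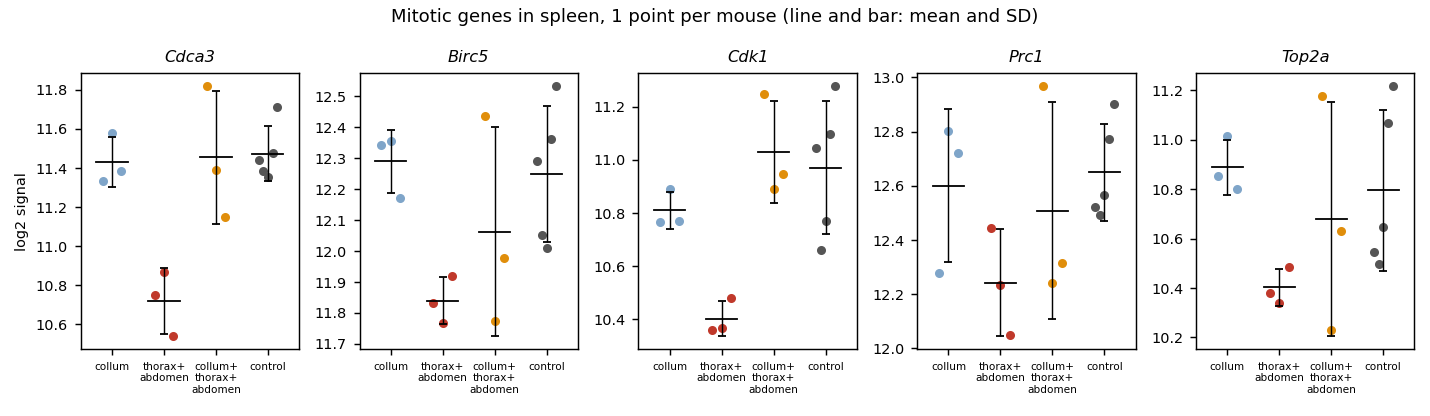
Log2 signal of 5 mitotic genes in the spleen, 1 point per mouse, for the collum, thorax+abdomen, collum+thorax+abdomen and control groups, with line and bar for mean and SD; each panel has a vertical axis of its own. For Cdca3 the thorax+abdomen mice sit between 10.54 and 10.87, below the 11.36 of the lowest control mouse, and the collum+thorax+abdomen mice span 11.15 to 11.82.

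At an unadjusted p under 0.05, 7 of the 20 genes were lower in group B (5.37% of all probes) and none in group C (5.97%). Over the in-field mice 2 were lower (4.64%), and in group A none (4.64%). In group A, Ube2c and Cdc20, partners of the anaphase-promoting complex, were higher at that p (0.75 ± 0.29 and 0.40 ± 0.17, adjusted p = 0.427 and 0.461). The other Cdc20 probes were at -0.29, 0.30 and 0.30 in group A, none of them at an unadjusted p under 0.05. Group B lay below every control mouse for 8 of 20 genes (5.85% of all probes). The differences between irradiated groups were tested directly. Relative to group A, 12 of 20 were lower in group B at an unadjusted p under 0.05 (11.1% of all probes). Relative to group B, 19 of 20 were higher in group C, with a median of 0.43, and 8 had an unadjusted p under 0.05 (5.58% of all probes), led by Cdca3 at 0.74 ± 0.18 (adjusted p = 0.203). None of these passed the threshold. The group C value turned on single mice. Its median ratio was 0.03 with all 3 mice, -0.19 without mouse 1, with 15 of 20 genes below control, and 0.22 without mouse 2, with 2 of 20 below. Group B kept a median of -0.46 to -0.32 when any single mouse was left out.

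Probes of 1 gene did not always agree in the spleen. For Nusap1 the 3 probes gave -0.12, -0.51 and -1.19 in group B. Of 63 other mitotic genes there, 57 lay below control in group B, with a median of -0.39. At an unadjusted p under 0.05, 20 of the 63 were lower and 1 higher, where 5.37% of all probes were lower and 4.23% higher. Among them were Depdc1b (-0.98 ± 0.22, adjusted p = 0.16) and Cdc25b, the phosphatase that activates Cdk1 (-0.90 ± 0.25, adjusted p = 0.235). DNA replication genes had 34 of 37 below control and 2 lower at an unadjusted p under 0.05 (5.37% of all probes). Besides Cdkn1a, the p53 targets Phlda3 (2.03 ± 0.21, adjusted p = 0.000239) and Bbc3 (1.44 ± 0.21, adjusted p = 0.00732) passed the threshold upward over the in-field mice. Cdkn1a itself was at 3.42 ± 0.17 in group B and 3.81 ± 0.17 in group C.

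Cell type markers in the spleen also differed. The summed endothelial level (3 of 5 detected, without Kdr and Cldn5) was 9.32 to 9.56 in group B, 8.88 to 9.56 in group C, 8.72 to 9.17 in group A and 8.54 to 9.27 in controls, so that group B lay above every control mouse. The summed macrophage level (5 of 7 detected, without Cd68 and Csf1r) was 14.01 to 14.21 in group B, 13.68 to 13.81 in group C, 13.01 to 13.32 in group A and 12.95 to 14.12 in controls. The summed level of the 11 detected erythroid markers was 16.43 to 16.73 in group B, 16.48 to 16.87 in group C, 16.84 to 16.92 in group A and 16.61 to 16.80 in controls. That of the 7 detected B lymphocyte markers was 13.74 to 13.95 in group B, 11.70 to 13.71 in group C, 13.77 to 14.37 in group A and 13.49 to 14.49 in controls. Pancreas markers (4 of 6, without Pnlip and Amy2a5) were 9.53 to 12.62 in group B, 10.01 to 11.23 in group C, 9.21 to 9.93 in group A and 9.04 to 10.12 in controls. The part of these cells in the mitotic values was not tested.

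In the liver and both kidney regions few mitotic genes could be measured and no shift was called. In the liver 3 of 6 genes lay below control over the in-field mice (median 0.10), none at an unadjusted p under 0.05 (4.52% of all probes). By the full threshold 0.0188% of liver probes passed over the in-field mice, 0.0188% in group C, 0% in group B and 0% in group A. Cdca3 in the liver gave 6.62, 6.56 and 6.79 in group B, 6.69, 6.51 and 6.33 in group C, 6.52, 5.77 and 6.26 in group A, and 5.92 to 6.85 in controls (median 6.01), at an in-field ratio of 0.34 ± 0.18 (adjusted p = 0.608). Liver Spc25 gave 6.69, 6.33 and 7.07 in group B, 6.41, 4.63 and 6.84 in group C, 7.45, 7.36 and 5.85 in group A, and 7.68, 6.62, 7.32, 5.68 and 6.85 in controls (in-field -0.50 ± 0.43, adjusted p = 0.744). In-field mice and controls overlapped for both genes.

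In the kidney cortex 3 of 7 lay below control over the in-field mice (median 0.00), none at an unadjusted p under 0.05 (4.84% of all probes), and 0% of cortex probes passed the threshold in any setup. Cdca3 there gave 6.27, 6.09 and 5.94 in group B, 5.27, 5.95 and 6.01 in group C, 6.01, 6.56 and 6.43 in group A, and 6.04, 6.08, 6.33, 6.37 and 6.11 in controls. Cenpa in the cortex ranged from 7.34 to 8.43 in the in-field mice and from 7.30 to 7.83 in controls. The in-field ratios were -0.26 ± 0.15 (adjusted p = 0.6) for Cdca3 and 0.21 ± 0.18 (adjusted p = 0.726) for Cenpa, and neither passed the threshold. Spc25, as bright here as in the spleen, was at 0.12 ± 0.23.

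In the kidney medulla no mitotic gene passed the threshold either, and the values nearest to it were those of Cdca3, in the collum group as well. Cdca3 gave 5.55, 6.40 and 5.91 in group B, 6.29, 5.86 and 6.14 in group C and 5.78, 5.74 and 6.08 in group A, and controls gave 6.63, 6.35, 6.50, 6.77 and 6.45. All mice of groups A and C lay below all controls, and 1 of group B overlapped them. The ratio was -0.67 ± 0.18 in group A (adjusted p = 0.0377), -0.58 ± 0.18 in group B (adjusted p = 0.0673) and a smaller -0.44 ± 0.18 in group C (adjusted p = 0.139). Cenpa in the medulla gave 7.14, 7.34 and 7.37 in group B, 6.77, 7.01 and 6.93 in group C, 7.10, 6.97 and 6.62 in group A, and 7.69, 7.25, 7.51, 7.06 and 7.41 in controls, at -0.49 ± 0.15 in group A (adjusted p = 0.0689) and -0.29 ± 0.13 over the in-field mice (adjusted p = 0.147). Over the in-field mice 7 of 8 genes lay below control, with a median of -0.23, and 3 of 8 had an unadjusted p under 0.05. In this tissue 15.0% of all probes were lower by that measure, and the threshold was passed by 1.39% of all probes in group A, 1.78% in group B, 0.130% in group C and 3.02% over the in-field mice, with no mitotic gene among them.

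Thyroid samples were checked first against thyroglobulin (Tg), the precursor protein of thyroid hormone, in every mouse. Its log2 signal was above 12 in 4 of 14 mice (group A mouse 1, group C mouse 3 and control mice 1 and 4), and it was detected in 7. The muscle genes Acta1 and Ckm were above 12 in 13 of 14, and the exception, group A mouse 2, had the salivary gene Smgc at 14.7. Markers of thyroid, muscle and salivary gland thus differed widely between samples with 1 label. Among the controls, mouse 4 stood apart, with Krt14 at 14.1 and Krt5 at 10.7, genes of basal squamous cells that were picked after their values were seen. Krt14 was also at 12.5 in group A mouse 1, 11.2 in group A mouse 2 and 9.99 in group C mouse 3. Krt5 was at 7.82 in group A mouse 1. Prc1 was 8.90 in control mouse 4 and 4.47 to 5.47 in the other controls.

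With that limit, 5 of 5 genes detected in the thyroid samples lay below control in the in-field mice (median -0.40), and 1 had an unadjusted p under 0.05 (1.29% of all probes). Without control mouse 4, 3 of 5 did and the median was -0.07. Aurka gave 5.66, 4.52 and 7.01 in group A, 6.87, 5.03 and 6.06 in group C and 7.02, 6.86 and 6.25 in group B, while controls gave 6.79, 7.15, 6.79, 7.02 and 6.48. The in-field mice ranged widely and overlapped the controls, at -0.99 ± 0.41 (adjusted p = 0.824). Cdca3 gave 5.68, 6.02 and 5.45 in group A, 5.64, 5.77 and 5.45 in group C, 5.21, 5.49 and 5.39 in group B, and 5.43, 6.01, 5.87, 7.27 and 5.91 in controls (in-field -0.43 ± 0.28, adjusted p = 0.824). No probe passed the threshold in the thyroid in any setup (0% of all probes).

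**Figure D5:**
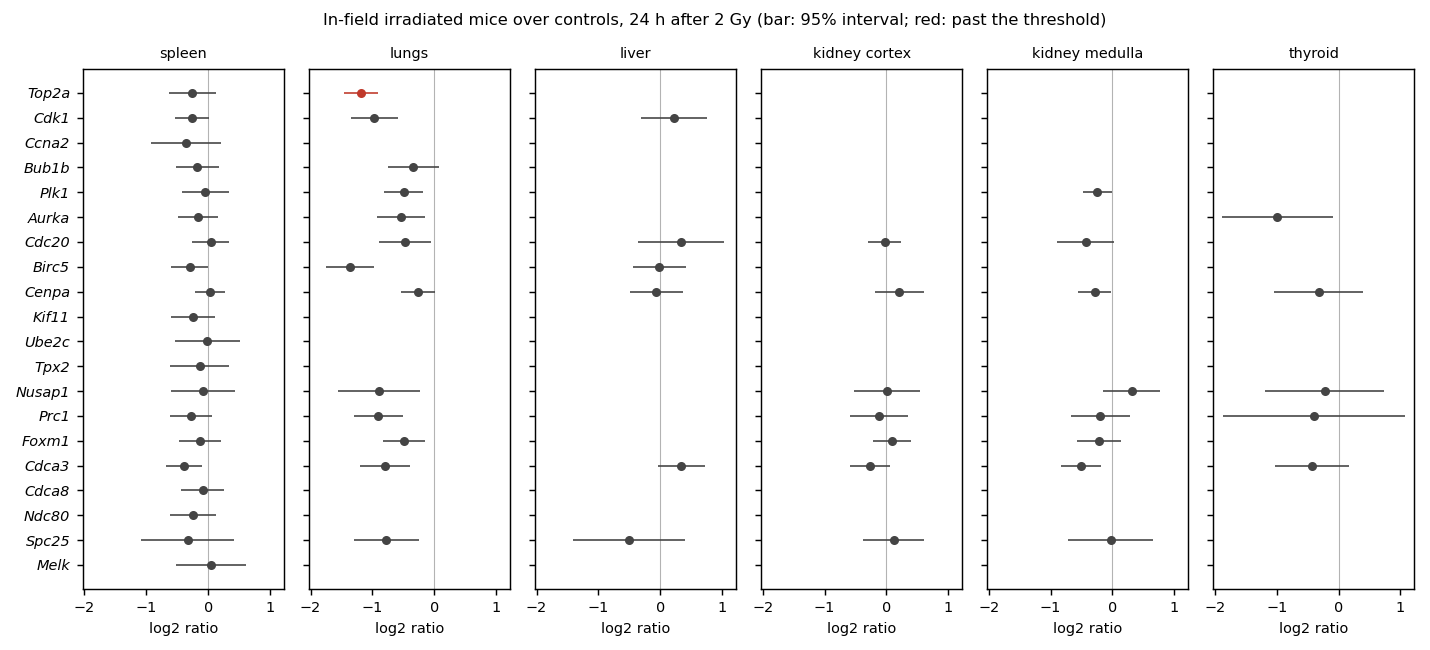
In-field log2 ratio to control of each mitotic gene in each tissue where it was detected, with points for the ratio, bars for its 95% interval and red for a gene past the threshold (Top2a in the lungs). The lung ratios all lie between -1.36 and -0.26, whereas those of the liver and kidney cortex lie on both sides of 0.

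Whether the lungs differed from the other tissues was tested on the in-field ratio itself, in 1 fit over 5 tissues without the thyroid and with no term for the mouse. Among genes detected in both tissues, the lung ratio was lower than that of the kidney cortex for 7 of 7, the kidney medulla for 7 of 8, the liver for 5 of 6 and the spleen for 13 of 13. At an unadjusted p under 0.05 these were 5 of 7 (3.46% of all probes), 2 of 8 (9.20%), 4 of 6 (3.98%) and 4 of 13 (3.81%). None passed the full threshold in any of the 4 comparisons, where 0.00643%, 1.21%, 0.0450% and 0.0257% of all probes did, in the same order. The lowest adjusted p among them was 0.0184, for Cdca3 in lungs minus liver (-1.07 ± 0.22). Birc5 was at -1.03 ± 0.25 for lungs minus liver (adjusted p = 0.0508) and Top2a at -0.62 ± 0.19 for lungs minus spleen (adjusted p = 0.24). Spleen set against kidney cortex, kidney medulla and liver gave no call for a mitotic gene either, where 0.0257%, 1.04% and 0.0772% of all probes passed. Top2a was thus called in the lungs, and its difference from the spleen was not called.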

How the data were processed

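The submitters deposited bead summary intensity signals with a detection p-value per probe for 88 Illumina MouseRef-8 arrays, not normalized, and a table of normalized intensity values, which the authors had quantile-normalized in BASE. The deposited detection p-value compares a probe with negative controls. The signals of an array ranked as the authors' normalized values did (lowest rank correlation 1). No aligner or build applies to the signals. Arrays detected 33.2 to 50.3% of probes at p under 0.01, and their number limits the precision.

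Signals were background-corrected from the detection p-values (limma 3.58.1 nec, offset 16, R 4.3.3), log2-transformed and quantile-normalized within each tissue, or over all arrays for comparisons between tissues. Repeat arrays of 1 sample were averaged. Probes detected (p under 0.01) on 3 or more arrays of the tissue entered lmFit and eBayes with the 14 mice, with Benjamini-Hochberg adjustment over all probes tested and the methods' thresholds (adjusted p under 0.01, log2 ratio of at least 0.58). In-field means the mean of the 2 groups whose field held the tissue. A probe undetected in all mice of a group is given as a bound: the mean of the brighter group over the higher of the dim probe and the lowest detected signal, per array, on normalized values. Probes were named from the platform annotation, and 16582 of 16593 gene IDs matched current ones. Prc1 had 2 promoter entries, of which the first was used.

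Per-mouse values are given for Top2a wherever detected, for members past the threshold, and for the members with the smallest in-field p (4 in lungs and spleen, 2 elsewhere), with Cdkn1a as the field check. The members and lists were chosen with earlier results of these data known. The fits were tested on simulated data with 50 probes changed at each size, from 0.58 to 2. At a log2 change of 1, 60% of changed probes were called for the lung in-field comparison and 36% for lungs in group B, and at 0.58 they were 14% and 6%. So many changed probes make the adjustment less strict than in the real lung data, where 2 and 1 probes passed. These shares are therefore likely too high for the real data. Replicate numbers are shared between groups but did not pair mice: deviations of same-numbered mice had median correlations of -0.13 to 0.04 by tissue. No 2 samples were near-identical (highest Pearson r between 2 samples 0.995). Alternatives were other normalizations, filters, variance settings, single mice left out and a replicate block. Some cell type markers are not reported here.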

Additional observations from a re-analysis of the deposited data

Results flagged for a closer look

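In 3 of the groups of 5 control mice tested for a value far from the rest, the gap to the nearest mouse exceeded Dixon's limit of 0.71 of the group's range. Chance gives about 1 in 20 such groups, and 65 groups were tested. Bub1b in the spleen was 9.36 in control mouse 5, against 8.81 in the next. Spc25 in the kidney cortex was 9.48 in control mouse 2, below the next at 10.2. Prc1 in the thyroid sample of control mouse 4 was 8.90, against 5.47 in the next, and that sample also held Krt14 at 14.1 and Krt5 at 10.7, whose part in the value was not tested.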

How the results depend on the processing

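No called result changed direction (the spleen group C median, near 0, changed sign with single mice left out), and of the values computed for counts and medians 667 stayed the same and 53 moved, while of those for single genes 381 stayed the same, 10 lost the threshold and 1 gained it. The single called mitotic gene of the lungs, Top2a, was the main dependence. The group B count of 1 was 0 with quantile normalization over all arrays, no background correction, the authors' normalized values, only the group and the controls, trend and robust variance, or a replicate block, 0 to 1 with single mice left out, and 2 at adjusted p under 0.05 alone. The in-field count of 1 was 0 with the authors' values, no background correction, only the group and the controls, or a replicate block, 0 to 2 with single mice left out, and 2 at adjusted p under 0.05. The replicate block changed no other call, and samples shared only a number. The in-field lung median of -0.78 was -0.33 with the authors' values, -0.35 without background correction, -0.51 with normalization over all arrays, -0.26 over all 27 genes with probes without the detection filter, -0.88 with the replicate block and -0.86 to -0.64 with single mice left out. In the kidney medulla, group A had 1 call with only the group and the controls and 1 at adjusted p under 0.05, where the in-field mice had 1. Counts higher in control lungs were 3 and 3 (liver), 5 and 4 (kidney cortex), 4 and 4 (kidney medulla) and 2 and 2 (thyroid) with the authors' values and without background correction, and against the thyroid 0 to 8 with single mice left out (8 without control mouse 4). In those settings the cause was not tested. A slide block was not run, as no slides are named in the sources used here. Signal over background limits the liver, kidney and thyroid, where 5 to 8 mitotic genes were measured.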
